A study of Mus musculus with 19 samples.

Results

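Macrophages rich in MHC class II transcripts were taken from the injured hind limb of mice with burn/tenotomy, an injury after which bone forms in soft tissue. They were chosen cell by cell from transcript counts. Barcodes counted as cells when they showed 500 genes or more and no more than 25% of their UMIs were mitochondrial, which left 39541 cells in 19 libraries. A member had at least 1 unique molecular identifier (UMI, a tag that counts each captured transcript once) of Csf1r, the receptor of the macrophage growth factor M-CSF, and at least 3 UMIs of the complement genes C1qa, C1qb and C1qc together. H2-Aa, H2-Ab1, H2-Eb1 and Cd74 together made up at least 1% of its UMIs, and Folr2, Cd209a and Pdgfra were at 0. The full rule was met by 2321 cells, 5.87% of all cells and 20.3% of the 11449 cells that met the Csf1r and C1q conditions and had no Pdgfra UMI, called C1q macrophages here.

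The samples follow the injury site over time and show it with and without a peptide that activates CD47. Mice received a dorsal scald burn of 30% of the body surface and a cut of the Achilles tendon, and cells of the tenotomy site were sequenced 3 days (3 libraries), 7 days (4 libraries) and 21 days (4 libraries) later. Another 4 libraries are named day 0, for which the labels list the burn although the tissue is described elsewhere as uninjured. The last 4 libraries came from injured mice given the peptide, called p7N3, at 10 mg/kg into the peritoneum each day for 3 days before and 3 days after injury and harvested on day 7, although the label of p7N3 replicate 4 gives no day and the labels name no vehicle for the day 7 libraries. The methods describe the animals as young adult males. The labels name C57 and LysmCre/Tgfb1fx/fx mice for the series as a whole, the latter lacking Tgfb1 in cells with Cre from the myeloid gene Lyz2, and give neither genotype to a library, so levels of Tgfb1 are printed without a genotype. They do not say whether the libraries of a group came from separate mice. The study's reporting summary describes triplicates at each time point, meant to measure variability between mice, without tying a mouse to a library. The p-values here measure the spread between these libraries.

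MHC class II molecules carry peptides of engulfed proteins to the cell surface, where CD4 T cells read them. H2-Aa, H2-Ab1 and H2-Eb1 encode their chains, the invariant chain Cd74 escorts them to the endosome, H2-DM exchanges its remnant for a peptide, and the coactivator CIITA switches the genes on through a promoter module of an X box and a Y box. Macrophages and dendritic cells both carry these genes, so that class II transcripts alone do not name a cell type.

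The promoters of a pair of rule genes and of H2-DMb1, which was outside the rule and followed it closely, are printed to show this module. The RefSeq windows (GRCm38.p6, 250 bases before to 50 after the annotated start, 5′ to 3′ on the gene's strand) lie at chr17:34287774-34288073 on the minus strand for H2-Aa, at chr17:34305617-34305916 on the plus strand for H2-Eb1 and at chr17:34152941-34153240 on the plus strand for H2-DMb1. Capitals mark matches to CTNGNAAC, letters of the X box core, and to TGATTGG, letters of the Y box core.
H2-Aa: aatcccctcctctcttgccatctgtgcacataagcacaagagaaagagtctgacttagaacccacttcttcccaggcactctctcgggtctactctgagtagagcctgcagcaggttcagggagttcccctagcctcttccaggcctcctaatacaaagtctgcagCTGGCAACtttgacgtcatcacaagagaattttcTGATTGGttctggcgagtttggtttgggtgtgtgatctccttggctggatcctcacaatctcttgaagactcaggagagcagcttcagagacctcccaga
H2-Eb1: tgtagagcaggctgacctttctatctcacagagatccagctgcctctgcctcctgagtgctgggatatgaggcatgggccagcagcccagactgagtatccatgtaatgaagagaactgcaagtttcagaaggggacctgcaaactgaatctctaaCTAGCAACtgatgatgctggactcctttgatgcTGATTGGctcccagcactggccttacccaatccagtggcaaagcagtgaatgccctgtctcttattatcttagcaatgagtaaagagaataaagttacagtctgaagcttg
H2-DMb1: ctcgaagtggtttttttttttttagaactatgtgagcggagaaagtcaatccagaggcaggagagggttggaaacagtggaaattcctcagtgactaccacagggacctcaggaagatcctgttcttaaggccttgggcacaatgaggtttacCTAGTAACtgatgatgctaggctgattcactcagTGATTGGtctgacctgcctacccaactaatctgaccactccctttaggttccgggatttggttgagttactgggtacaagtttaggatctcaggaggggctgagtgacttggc
The X letters began 84, 94 and 97 bases before the start in H2-Aa, H2-Eb1 and H2-DMb1, the Y letters 50, 61 and 63 bases before it, and 26, 25 and 26 bases lay between them. On either strand, TGATTGG occurred in 7.82% and CTNGNAAC in 13.2% of 32851 promoters of this length, and the X letters followed by the Y letters within 40 bases in 31 promoters of 28 genes (0.0944%), among them H2-Ob and Rfx5. The letters were chosen with these promoters in view, a match is not a measured binding site, and no match was found in the windows of H2-DMa, Ccr2 and Plbd1. The rule genes Cd74 and H2-Ab1 were not among the 28 genes, and H2-Ab1 and Ciita had no entry among the promoters.

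The cells carried the transcripts of macrophages. The 12 macrophage identity genes, which include Lyz2, Cd68 and the F4/80 gene Adgre1, summed to 18283 ± 1702 CPM (UMIs of a gene per 1000000 UMIs, both summed over the member cells of a library, SD, n = 3) at day 3, 21955 ± 833 (n = 4) at day 7, 19576 ± 693 (n = 4) at day 21 and 20313 ± 1267 (n = 4) with p7N3. Lyz2 made up most of each sum, such as 12674 of 16422 CPM in day 3 replicate 1. Over all 2321 cells, Adgre1 had 3975 UMIs, Cd68 9709 and Lyz2 241431. The 10 monocyte genes summed to 4415 ± 597 CPM at day 3 and 1750 ± 295 CPM at day 7. The 12 genes of settled tissue macrophages summed to 2061 ± 145 and 3488 ± 251 CPM on these days. Of the dendritic list, Flt3 had 156 UMIs, Zbtb46 30, Xcr1 8 and Clec9a 7, whereas Clec10a had 1321, Mgl2 1020, Batf3 553, Itgax 443, Cd24a 383, Klrd1 281, Ccr7 262 and Fscn1 257. The 15 genes of that list summed to 271 ± 67.5 CPM at day 3, 344 ± 77.2 CPM at day 7 and 851 to 1188 CPM in the 4 day 0 libraries. Mgl2 alone gave 623, 409, 803 and 815 CPM of the day 0 sums, in libraries of 16, 6, 9 and 4 members. Of the lymphocyte genes Cd3e had 8 UMIs, Cd79a 22 and Cd79b 528, and of the erythroid and mast cell genes Cpa3 had 2 and the haemoglobin gene Hbb-bs 29160. Settled tissue macrophage genes were present in part. Sepp1 had 28073 UMIs, Ccl8 11671, Mrc1 3662, F13a1 2251 and Gas6 1234, whereas Cd163 had 110, Siglec1 64, Lyve1 46, Timd4 22 and Vsig4 7. Of the cells, 4.57% shared a barcode with a cell of another library and 4.65% were among the top 3.9% of doublet scores of their library.

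A library held between 571 and 3668 cells with 3019467 to 39870492 UMIs, and its members together 14719 to 93138 UMIs at day 0, at least 957794 UMIs on day 3, on day 7 and with p7N3, and 198197 to 436563 UMIs at day 21. The class was not sharply bounded. The MHC class II share of a member ranged from 1.00% to 16.8% of its UMIs with a median of 5.70%. Just inside the limit, 79 members had a share under 1.2%, and just outside it, 89 cells that met every other condition had a share of at least 0.8%. A total of 80 members had exactly 3 C1q UMIs and 370 a single Csf1r UMI. The depth of a member, as the median of its library, lay between 9524 and 9890 UMIs (day 3), between 4019 and 5883 UMIs (day 7), between 7355 and 8396 UMIs (day 21) and between 4789 and 6192 UMIs (p7N3).

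MHC class II high macrophages made up a larger part of the C1q macrophages at day 7 than at day 3, and this part was similar at day 7, day 21 and with p7N3. Of C1q macrophages they were 14.3%, 9.52%, 10.0% and 5.97% in the 4 day 0 libraries, 12.3%, 10.8% and 11.3% in the 3 day 3 libraries, and 27.6%, 29.9%, 23.2% and 21.9% in the 4 day 7 libraries. At day 21 they were 25.1%, 23.1%, 19.7% and 28.8%, and with p7N3 23.1%, 19.4%, 30.9% and 26.5%. Every day 7, day 21 and p7N3 library lay above every day 3 library, and day 3 lay within the range of day 0. The means were 9.94% ± 3.41 (SD, n = 4) at day 0, 11.5% ± 0.741 (n = 3) at day 3, 25.6% ± 3.73 (n = 4) at day 7, 24.2% ± 3.81 (n = 4) at day 21 and 24.96% ± 4.89 (n = 4) with p7N3.

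Day 7 exceeded day 3 by 14.2 percentage points (exact two-sided permutation test, p = 0.0571, the smallest that 4 against 3 libraries allow, and 0.229 adjusted over 4 comparisons). With p7N3 the share was 0.672 points below day 7 (exact permutation p = 0.83, also after adjustment), at day 21 it was 1.46 points below day 7 (p = 0.6, adjusted 0.8), and at day 3 it was 1.53 points above day 0 (p = 0.571, adjusted 0.8). When cells were chosen after thinning to 2000 UMIs, day 3 was 5.10 points above day 0 (exact permutation p = 0.0571, adjusted 0.114). As a part of all cells, the class made up 7.25% ± 0.286 at day 3 and 7.06% ± 1.07 at day 7, which reversed the sign of the difference (-0.182 points, exact permutation p = 0.857). It was 0.978% ± 0.478 of all cells at day 0 and 2.93% ± 0.276 at day 21, the latter 4.13 points below day 7 (exact permutation p = 0.0286, the smallest that 4 against 4 libraries allow, adjusted 0.114).

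**Figure D1:**
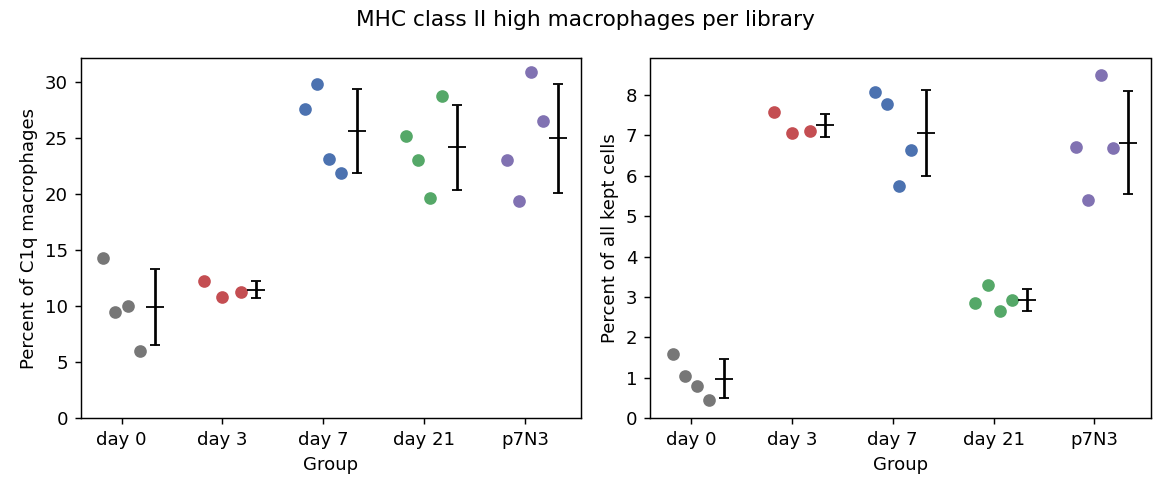
MHC class II high macrophages as a percent of C1q macrophages (left) and of all kept cells (right), with a point per library and the mean ± SD beside it. On the left all 12 libraries of day 7, day 21 and p7N3 lie above the 3 of day 3, and on the right day 3 and day 7 lie at 7.25% and 7.06%.

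Other C1q macrophages, given here in part, grew or shrank as shares beside the class. Cells that met the same rule with an MHC class II share under 1%, called MHC class II low macrophages (2470 cells), made up 20.9% ± 4.67 of C1q macrophages at day 3, 23.7% ± 2.70 at day 7 and 13.2% ± 3.57 at day 21. Folr2-positive macrophages went from 19.8% ± 6.59 to 35.3% ± 7.12 and 49.6% ± 6.76 over the same days, and cells in none of the classes from 28.5% ± 4.15 to 8.08% ± 1.44 and 10.9% ± 2.04. These are parts of a whole and are given without a test.

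Day 3 members sat low in the range of the MHC class II share and later members high. At day 3, 27.7% ± 1.29 of members (mean over libraries, SD, n = 3) had a share of 1 to 2% and 7.17% ± 2.95 a share of 8% or more. At day 7 these were 11.6% ± 1.55 and 32.2% ± 6.21 (n = 4), at day 21 7.04% ± 4.01 and 32.8% ± 3.48 (n = 4), and with p7N3 11.2% ± 1.21 and 33.4% ± 2.97 (n = 4). The median share of a library lay between 3.13% and 3.35% at day 3 and between 5.32% and 7.03% at day 7. Cd74 reflected this with 20906 ± 727 CPM at day 3 and 30541 ± 3179 CPM at day 7, as did H2-Aa with 7060 ± 506 and 10705 ± 1102 CPM. These genes belong to the rule and were not tested.

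Across that range, H2-DMa and Ciita followed the class II genes, whereas the cathepsin gene Ctss (3720 ± 738 to 3614 ± 611 CPM) and the endopeptidase gene Lgmn (2457 ± 569 to 1739 ± 276 CPM) did not in day 7 members. H2-DMa, which encodes the alpha chain of H2-DM, measured 358 ± 140, 494 ± 55.1, 847 ± 76.1 and 1188 ± 119 CPM in day 7 members with a share of 1 to 2%, 2 to 5%, 5 to 8% and 8% or more (n = 4 libraries). Ciita, the gene of the coactivator, measured 7.34 ± 7.01, 8.43 ± 2.29, 16.2 ± 2.00 and 30.5 ± 9.12 CPM in the same ranges. Mgl2, a lectin of alternatively activated macrophages and of some dendritic cells, measured 5.25 ± 7.26, 34.7 ± 32.5, 96.3 ± 41.8 and 134 ± 56.6 CPM. Ctsd and Gpnmb ran the other way. Ctsd, the protease cathepsin D, went from 1590 ± 172 to 621 ± 115 CPM and Gpnmb, a glycoprotein of lysosome-rich macrophages, from 136 ± 97.7 to 12.3 ± 6.83 CPM between the lowest and the highest range. The chemokine Ccl8 went from 1776 ± 920 to 349 ± 47.5 CPM.

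The monocyte receptor gene Ccr2 had opposite orders at day 3 and day 7. It measured 878 ± 99.4 CPM in the lowest and 434 ± 43.4 CPM in the highest range at day 3 (n = 3 and 2 libraries), and 287 ± 143 and 790 ± 91.2 CPM at day 7 (n = 4). In the highest range at day 3, Flt3, the receptor gene that defines dendritic cells, reached 122 ± 21.4 CPM (n = 2 libraries), against 10.5 ± 6.70 CPM at day 7 (n = 4). In these 2 libraries, the day 3 cells with the largest class II share thus carried a dendritic marker that the others had at 7.63 to 34.1 CPM. The 3 day 3 libraries held 15, 11 and 5 such cells, on average 7.17% of the class at that time. These are descriptions along a measure of the rule, with no test.

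**Figure D2:**
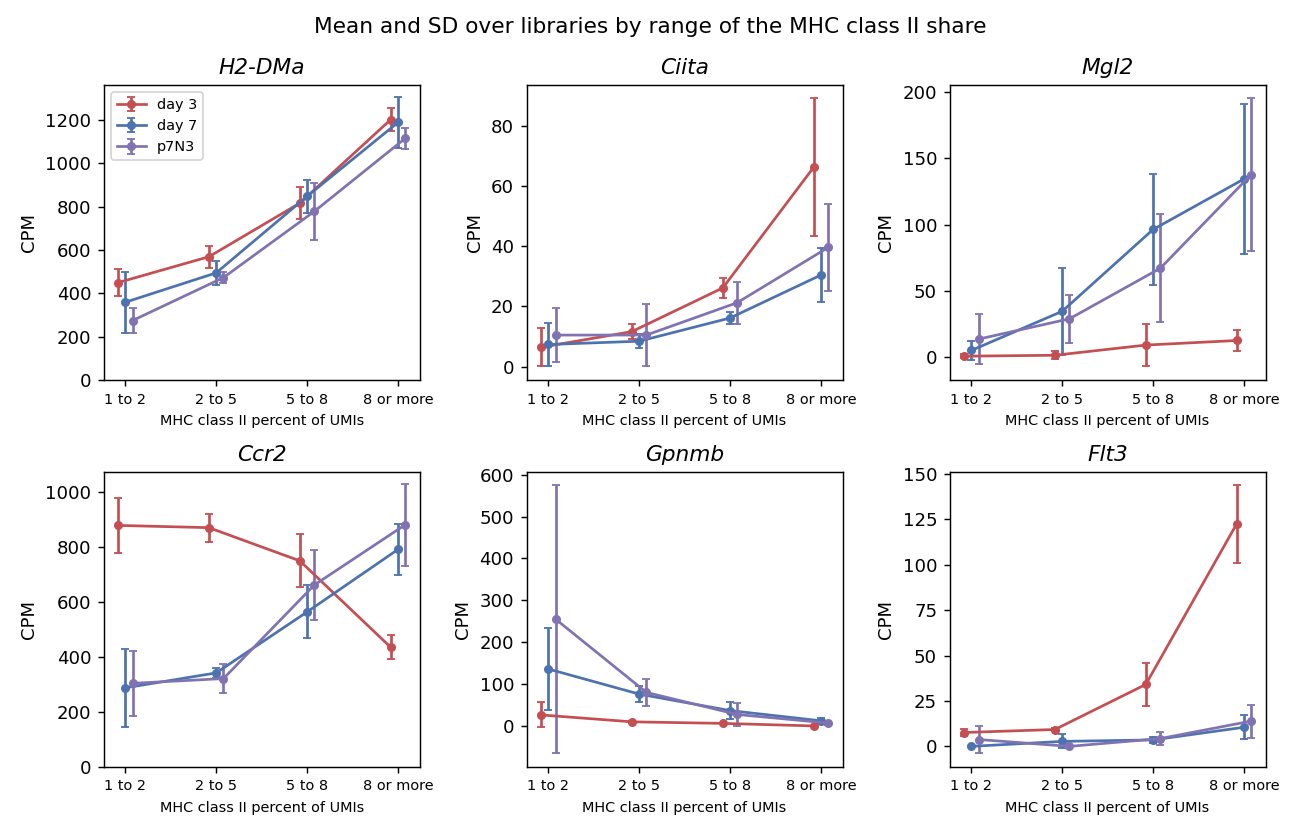
Levels of 6 genes (CPM, mean ± SD over libraries) in member cells grouped by the percent of UMIs from the 4 MHC class II genes, for day 3, day 7 and p7N3. H2-DMa and Ciita rise along the range in all 3 groups, Gpnmb falls, Ccr2 falls at day 3 and rises at day 7, and Flt3 is highest in the top range of day 3, at 122 CPM.

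Beside MHC class II low macrophages of the same library, the members held more of both H2-DM genes, of Ciita and of the monocyte receptor gene Ccr2. H2-DMb1, the beta chain of H2-DM, measured 707 ± 54.3 CPM in members and 72.8 ± 24.6 CPM in MHC class II low macrophages (mean ± SD over 15 libraries, median log2 ratio 3.33). H2-DMa measured 741 ± 96.3 against 87.6 ± 42.0 CPM (3.21) and Ciita 21.7 ± 5.73 against 1.15 ± 0.895 CPM (3.11). Other loading genes lay closer, with Lgmn at 1912 ± 238 against 1841 ± 150 CPM and Ctss at 3538 ± 298 against 3169 ± 239 CPM at day 7 (n = 4 libraries). Among the 12 genes with the largest ratios that kept their sign in all 15 libraries were also Clec4b1 (3.14), Ccr2 (568 ± 170 against 180 ± 247 CPM, 2.91), the phospholipase-like gene Plbd1 (2.73) and the cytokine gene Il1b (1220 ± 831 against 622 ± 983 CPM, 2.62). Sirpb1a and Sirpb1c, at 2.96 and 2.08, belong to a family of near-identical copies whose reads may be shared. The 12 genes that were lower in members were led by Ctsk, the protease cathepsin K of osteoclasts and fibroblasts (27.0 ± 12.1 against 363 ± 261 CPM, -3.57), and held genes of stromal cells such as Fmod, Meg3, Ebf1 and Myl9.

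Beside Folr2-positive macrophages, the members held less of several transcripts of settled tissue macrophages. The scavenger receptor gene Cd163 measured 15.5 ± 31.5 against 144 ± 196 CPM (16 libraries, median log2 ratio -4.04), the complement receptor gene Vsig4 0.289 ± 1.16 against 41.2 ± 44.5 CPM (-4.67) and Ccl8 787 ± 586 against 6521 ± 2761 CPM (-3.03). Il1b (2.34), the aspartic protease gene Napsa (2.30), Ccr2 (2.29) and H2-DMb1 (710 ± 53.7 against 202 ± 70.02 CPM, 1.95) were higher. None of these ratios was tested, because the rule fixed the classes.

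Between day 3 and day 7 the MHC class II high macrophages changed in 1760 of 7985 genes tested (22.0%, edgeR quasi-likelihood test on UMIs summed per library, Benjamini-Hochberg adjusted p under 0.05, 4 against 3 libraries), of which 822 rose and 938 fell. Among the lists, more monocyte genes and more cytokine and chemokine genes fell than rose, and more lipid handling genes rose than fell. The genes of the rule counted toward library size and were not tested. The median log2 fold change over all genes tested was 0.01. Of all genes tested 10.3% rose and 11.7% fell, the shares that stand beside the list counts below. On simulated data, false genes made up more of the calls in this comparison than the threshold allows, so its counts are approximate.

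Of the 10 monocyte genes, 8 fell and none rose, with a median log2 fold change of -2.11, where 11.7% of all genes tested fell. Chil3, a chitinase-like protein of recruited monocytes, measured 440, 381 and 517 CPM in the 3 day 3 libraries and 31.0, 14.4, 13 and 21.6 CPM in the 4 day 7 libraries. The groups did not overlap, as for 17.7% of all genes in this direction and 13.5% in the other, and Chil3 fell by 4.40 on the log2 scale (SE 0.197, edgeR adjusted p = 8.73e-09). The haptoglobin gene Hp (357 to 43.3 CPM, log2 fold change -3.01), Ifitm6 (-3.50) and the matrix proteoglycan gene Vcan (-2.83) fell with it. Ccr2 measured 800, 797 and 864 CPM at day 3 and 563, 528, 576 and 456 CPM at day 7. Its groups did not overlap either, but its fall was smaller (log2 fold change -0.59, SE 0.101, edgeR adjusted p = 0.000758).

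Of the 12 lipid handling genes, 11 rose and none fell (median 1.39, with 10.3% of all genes tested higher). Lpl, lipoprotein lipase, measured 69.2, 45.6 and 45.1 CPM at day 3 and 330, 181, 309 and 268 CPM at day 7, without overlap (log2 fold change 2.38, SE 0.203, edgeR adjusted p = 2.01e-06). The lipoprotein gene Apoe went from 7642 ± 114 to 22288 ± 3621 CPM (1.59). Gpnmb (2.07), the tetraspanin gene Cd9 (2.03), the fatty acid carrier gene Fabp5 (1.72) and the scavenger receptor gene Cd36 (1.72) rose as well, and so did Spp1, which encodes osteopontin, by less (0.82, 320 to 553 CPM).

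Of 19 cytokine and chemokine genes tested, 10 fell and 3 rose (median -0.61). Il1b measured 2747, 2323 and 3132 CPM at day 3 and 1017, 1091, 1042 and 1162 CPM at day 7. Every day 7 library lay under every day 3 library (log2 fold change -1.31, SE 0.101, edgeR adjusted p = 8.27e-07). Tnf (-1.75), Il1a (-1.72) and the monocyte attractant Ccl2 (422 to 190 CPM, -1.12) also fell, whereas Ccl12 (34.3 ± 11.5 to 212 ± 15.3 CPM, 2.65), Ccl5 (1.58) and Cxcl16 (1.02) rose. Ccl5 was no longer past the threshold with DESeq2 or without day 3 replicate 1 or 3.

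Outside the rule, loading genes changed in both directions, and the MHC class I genes that changed rose. Of 13 loading and costimulation genes tested, 4 rose and 2 fell (median 0.13). Ctss (0.64), Lgmn (0.78), H2-DMa (0.36, 637 ± 31.1 to 794 ± 106 CPM) and the thiol reductase gene Ifi30 (0.31) rose, and H2-Oa (-2.26, 15.5 to 3.24 CPM) and H2-DMb2 (-1.05) fell. H2-Oa encodes a chain of H2-DO, the inhibitor of H2-DM. H2-DMb2 is a close copy of H2-DMb1, and its sign turned (0.58) when cells were chosen after thinning to 2000 UMIs. Of 9 MHC class I genes, 3 rose and none fell (median 0.21), namely B2m (0.86), H2-K1 (0.39) and H2-D1 (0.31). H2-K1 was no longer past the threshold without day 3 replicate 2 or 3.

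Of 7 resident-like genes of settled tissue macrophages tested, 4 rose and 1 fell (median 0.57). Ccl8 measured 252, 169 and 115 CPM at day 3 and 952, 1273, 1045 and 762 CPM at day 7, without overlap (log2 fold change 2.54, SE 0.224, edgeR adjusted p = 2.83e-06). Ccl24 (2.02), which lost the threshold with DESeq2 and with the thinned choice of cells, and the ligand gene Gas6 (1.23) rose and the factor XIII gene F13a1 fell (232 to 114 CPM). Of 12 macrophage identity genes, 5 rose and 1 fell, with Ms4a7 (316 to 1402 CPM, 2.19) and the fractalkine receptor gene Cx3cr1 (1.70) ahead.

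Among the genes named for the largest changes, Retnla, a secreted protein induced by interleukin 4, had no UMI in any of the 3 day 3 libraries and 546, 163, 615 and 264 CPM in the day 7 libraries. With 3 counts over the day 3 libraries as the floor, it was at least 555-fold higher at day 7. Mgl2 measured 0.685, 9.91 and 0.820 CPM at day 3 and 106, 46.3, 107 and 55.5 CPM at day 7, again without overlap (log2 fold change 4.28, SE 0.514, edgeR adjusted p = 4.06e-05). Its reads may be shared with its close relative Clec10a, which went from 51.3 to 98.6 CPM. The elastase gene Mmp12 rose by 4.24, with 22.3, 16.9, 83.0 and 182 CPM at day 7 against at most 9.02 CPM. Ptn (4.61) and C1qtnf3 (4.40) had means of 50.5 and 30.2 CPM at day 7. Ptn measured 15.5, 44.4, 134 and 8.29 CPM there, and its log2 fold change was 3.61 without day 7 replicate 3. Ccl21a, a gene with near-identical copies, rested on day 7 replicate 4 with 396 CPM against 9 to 15 CPM in the other day 7 libraries, so that its log2 fold change of 4.87 was 1.83 without that library. It was no longer past the threshold without any single day 3 library. Stromal, endothelial and mural genes also had higher sums in the members at day 7. The part of RNA of such cells in the rises of Ptn, C1qtnf3 and Ccl21a was not tested. The genes that fell most were Retnlg (-5.62), Wfdc21 (-5.05), the iron-binding lipocalin gene Lcn2 (-4.54), Chil3, Gm5483 (-4.11) and the acute phase gene Saa3 (172 ± 15.3 to 12.4 ± 9.65 CPM, -3.68).

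Of 14 interferon response genes tested, 5 rose and none fell (median 0.78), led by Iigp1 (3.06, 0.714 to 6.45 CPM), Ifit3 (1.88) and Ifit2 (1.70). Of 11 TGF beta and growth factor genes, 5 rose and 3 fell (median 0.23). Igf1, insulin-like growth factor 1, went from 19.3 ± 6.30 to 143 ± 18.8 CPM (2.90) and Pdgfb rose by 1.51, while Smad7 (-1.05), the TGF beta induced matrix gene Tgfbi (-0.87, 1881 to 1002 CPM) and Tgfb1 itself (-0.45, 381 to 271 CPM) fell. Of the dendritic list, 4 of 11 genes rose, among them Mgl2 and the integrin gene Itgax (2.21), and 4 fell, among them Flt3 (-2.06, 21.9 to 4.89 CPM) and Klrd1 (-2.25), whose sign turned (0.23) with the thinned choice of cells. Klrd1 also lost the threshold with DESeq2 and without day 3 replicate 2. Of the 5 genes of the CD47 list (Cd47, Sirpa, Thbs1, Calr and Lrp1), 1 fell, the thrombospondin gene Thbs1 (-1.26, 987 to 401 CPM). Of 7 cell cycle genes 1 rose (Tubb5, 0.52), of 10 immediate early and heat shock genes Jun rose (0.82) and Junb fell (-0.48), and of 6 complement genes 1 rose (C3ar1, 0.73) and 2 fell (Cfp and C5ar1, -0.84 and -0.37). Over all genes tested 10.3% rose and 11.7% fell, so single calls in lists of this size lie near those shares. Tubb5 lost the threshold with all 5 groups in 1 fit and with the thinned choice of cells. C5ar1, like H2-DMb2, lost the threshold in 7 of 21 alternatives, and H2-D1 and Il1a lost it in 6, among them the omission of day 7 replicate 2 for each.

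**Figure D3:**
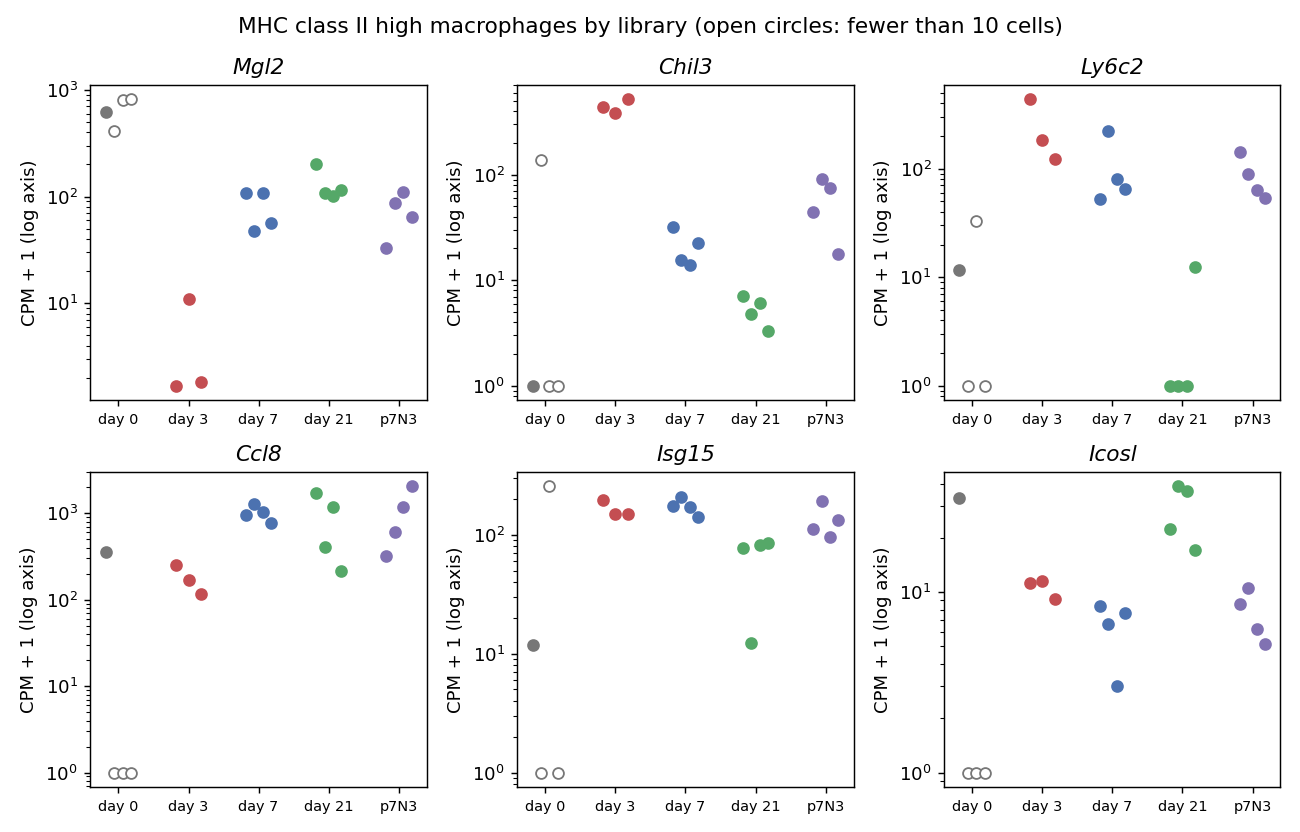
CPM + 1 (log axis) of 6 genes in MHC class II high macrophages, with a point per library and open circles for the day 0 libraries with fewer than 10 member cells. Mgl2 and Ccl8 rose and Chil3 fell from day 3 to day 7, and Ly6c2 and Isg15 fell and Icosl rose from day 7 to day 21.

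RNA of other cells moved over the same days. The summed granulocyte genes fell from 2694 ± 825 CPM at day 3 to 397 ± 190 CPM at day 7 (4 of 4 genes tested fell, the most abundant being S100a8 at 1411 and 209 CPM), and the stromal genes went from 1162 ± 377 to 2088 ± 653 CPM (4 of 6 rose, with Col1a1 at 223 and 561 CPM). Of 3 endothelial and mural genes 2 rose (Rgs5 and Acta2, 3.43 and 2.41), and Rgs5 was at 0.38 and not past the threshold with the top doublet scores removed. It lost the threshold in 6 of 18 alternatives, among them the omission of each day 3 library. The 1 lymphocyte gene tested, Cd79b, rose (0.82, 20.8 to 35.5 CPM). Retnlg, Wfdc21, Lcn2 and S100a8 are known from neutrophils, and the part of neutrophil RNA in their falls was not tested. Without members in which stromal, granulocyte and haemoglobin genes exceeded 0.5% of UMIs, which left 2193 cells, 1653 genes were past the threshold, and S100a8 fell by 3.96 and Col1a1 rose by 0.94.

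Monocyte genes and Il1b fell less in MHC class II high than in MHC class II low macrophages of the same libraries, and lipid handling genes rose less. The sizes of these differences varied over the alternatives, as given below. The change from day 3 to day 7 differed between both classes in 479 of 9322 genes (5.14%, edgeR quasi-likelihood interaction with a term per library, Benjamini-Hochberg adjusted p under 0.05), with a more positive change in the members for 339 and a more negative one for 140. Of the 10 monocyte genes, 8 changed more positively in the members (3.64% of all genes tested) and none more negatively (1.50%), with a median difference of log2 fold changes of 2.47 against 0.01 over all genes. Ccr2 measured 656, 610 and 700 CPM in the low class at day 3, below the members, and 85.1, 87.6, 54.7 and 57.9 CPM at day 7, far below all 4 member values (difference of log2 fold changes 2.66, SE 0.138, edgeR adjusted p = 1.46e-08). Plac8 went from 978 to 301 CPM in the members and from 1462 to 50.3 CPM in the low class (3.17). Ly6c2 (3.73), whose reads may be shared with Ly6c1, and Chil3 (2.66) were past the threshold too.

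Of 21 cytokine and chemokine genes, 9 changed more positively in the members and 1 more negatively (Cxcl16, -0.54). Il1b measured 2701, 2268 and 2550 CPM in the low class at day 3 and 156, 134, 128 and 297 CPM at day 7, so that the classes overlapped at day 3 and stood apart at day 7 (difference 2.63, SE 0.197, edgeR adjusted p = 4.77e-07). Il6 (2.80, from 10.9 to 7.09 CPM in members and 53.1 to 4.59 CPM in the low class), Il1a (2.41) and Cxcl3 (2.27) were in the same direction, and of 19 alternatives they lost the threshold in 5, 3 and 2. Il6 lost it without day 3 replicate 1 or day 7 replicate 1. Of 12 lipid handling genes, 7 changed more negatively in the members. Spp1 went from 320 to 553 CPM in the members and from 501 to 2687 CPM in the low class (-1.56, edgeR adjusted p = 1.00e-07), Gpnmb from 12.6 to 53.2 and from 24.1 to 418 CPM (-1.99), Fabp5 from 291 to 932 and from 430 to 3148 CPM (-1.05), and Ctsd from 745 to 1080 and from 784 to 2503 CPM (-1.04).

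Of 13 loading and costimulation genes, 3 changed more positively in the members (H2-DMa, 1.34, the costimulator gene Cd86, 0.88, and H2-DMb1, 0.70) and 1 more negatively (Lgmn, -0.39). The former 3 lost the threshold with the thinned choice of cells, and H2-DMb1 also without a library term. Their lowest differences over the alternatives were 0.21, 0.26 and 0.13. The class II share of the members differed between the days, as given above, and the part of that shift in the H2-DM genes was not tested. Of 9 resident-like genes, Sepp1 (-1.17) and Mrc1 (-1.06) changed more negatively. Of the 12 identity genes, Cd14 (1.38) and Fcgr1 (0.57) changed more positively and Ms4a7 (-0.68) and Mertk (-1.27) more negatively, and of 15 interferon genes 3 changed more positively, led by Gbp2 (1.82). Among the genes named for the size of the difference was Ear2, a ribonuclease gene of a family of close copies, which went from 9.44 to 67.1 CPM in the members and from 21.3 to 1.51 CPM in the low class (6.77, SE 0.462, edgeR adjusted p = 1.61e-07). Ccl11 (4.75), Des (4.42), Gm9733 (3.73) and Ms4a8a (3.47) were also named, of which Ccl11 and Des averaged 3.02 and 16.6 CPM in day 7 members. Ccl11 was at 3.60 and not past the threshold without day 7 replicate 3. Those with a more negative change were Fmod (-2.79), Mdk (-2.69), Rbp4 (-2.60) and the iron exporter gene Slc40a1 (-2.56). Of 19 alternatives, Lgmn lost the threshold in 11, Mertk in 10, Gbp2 in 8 and Fcgr1 in 5, each of them also with DESeq2, without a library term and with 1 or more of the day 3 libraries left out in turn, and Fmod, Rbp4 and Mdk lost it in 9, 6 and 5 of theirs. The signs of Sepp1, Mrc1, Ms4a7 and Lgmn turned with the thinned choice of cells (0.14, 0.32, 0.14 and 0.30). Cd14 lost the threshold with the same choice, and its lowest difference over the alternatives was 0.08.

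RNA of other cells differed between the classes as well. Col1a1 went from 645 to 2993 CPM in the low class and from 223 to 561 CPM in the members, and 4 of 7 stromal genes changed more negatively in the members, while 2 of 5 granulocyte genes changed more positively (S100a8, 1.98, and S100a9, 1.97). Without cells rich in such RNA, Col1a1, Col1a2 and Col3a1 were at 0.20, 0.02 and 0.03, and S100a8 and S100a9 at -0.80 and -0.44, while 507 genes were past the threshold. The cells were removed by these same genes, which by itself limits their differences. When the classes were chosen after each cell was thinned to 2000 UMIs, 101 genes were past the threshold and only 36 of them were among the 479 given above. Ccr2, Plac8, Il1b, Spp1 and Ctsd were among those past it, and Ly6c2 (1.49), Chil3, Gpnmb, Fabp5 and H2-DMa were not. Over all alternatives, the difference ranged from 1.51 to 2.91 for Ccr2 and from 1.84 to 3.41 for Plac8. It ranged from 1.04 to 2.92 for Il1b and from -1.30 to -0.34 for Ctsd.

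**Figure D4:**
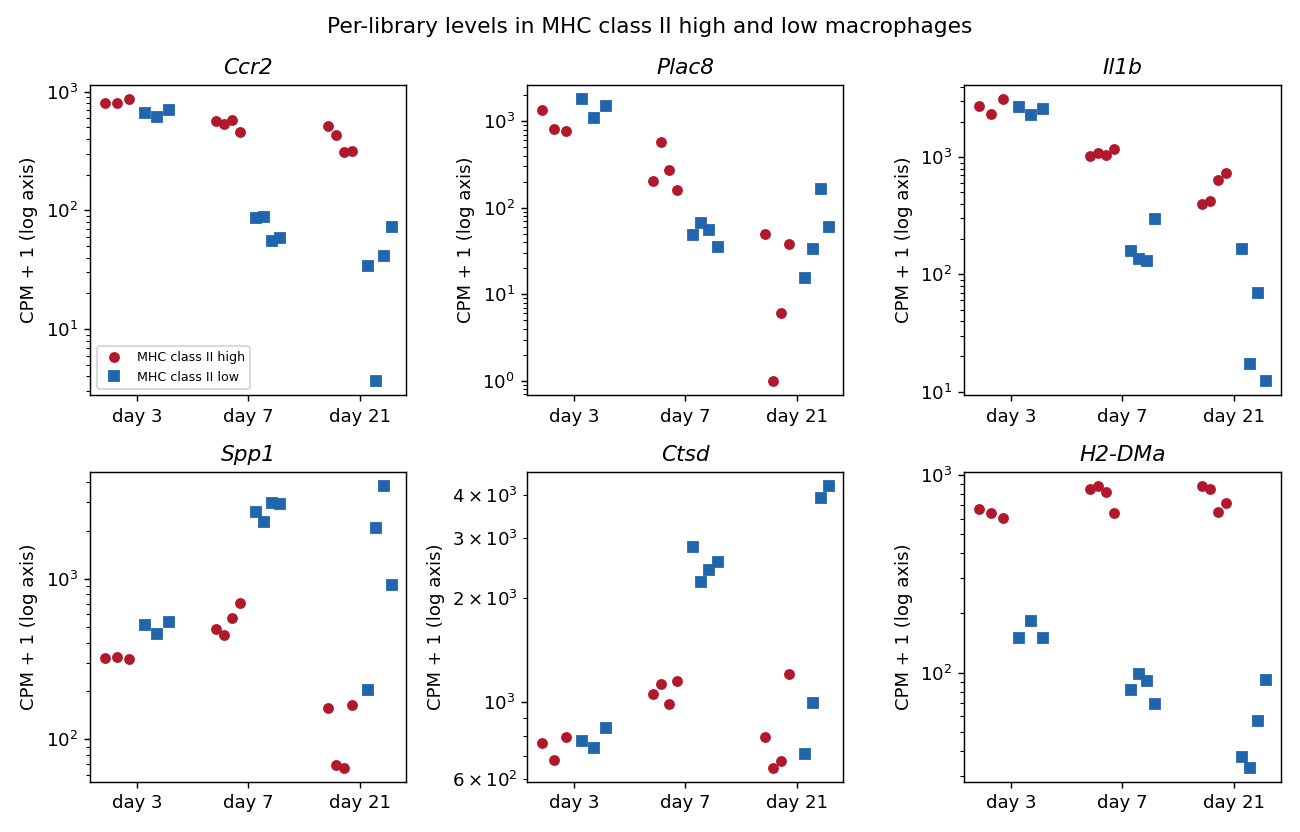
CPM + 1 (log axis) of 6 genes per library in MHC class II high (circles) and MHC class II low (squares) macrophages at days 3, 7 and 21. Ccr2, Plac8 and Il1b lie closer together at day 3 than at day 7, Spp1 and Ctsd rise more in the low class, and H2-DMa is higher in the high class on every day.

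From day 7 to day 21, some monocyte and interferon response genes fell in the members, and genes such as Icosl, Slco2b1 and Timp3 rose. The change was past the threshold in 327 of 5900 genes (5.54%, edgeR quasi-likelihood test, Benjamini-Hochberg adjusted p under 0.05, 4 against 4 libraries), of which 171 (2.90%) rose and 156 (2.64%) fell, with 25 to 57 member cells in a day 21 library. The day 7 libraries are those of the comparison with day 3. Of 7 monocyte genes tested, 3 fell and none rose (median -1.19 against 0.01 over all genes). Plac8 measured 201, 573, 270 and 159 CPM at day 7 and 48.6, 0, 5.05 and 36.6 CPM at day 21, without overlap, as for 7.46% of all genes in this direction and 6.93% in the other (log2 fold change -3.51, SE 0.546, edgeR adjusted p = 0.00176). Ly6c2 had 52.0, 221, 79.0 and 63.8 CPM at day 7 and was at 0 in 3 of 4 day 21 libraries and at 11.5 CPM in the other, and Ms4a4c (-1.91) fell too. Ccr2 went from 531 ± 53.9 to 390 ± 97.5 CPM and was not past the threshold (edgeR adjusted p = 0.137).

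Of 12 interferon response genes, 5 fell and none rose (median -1.25). Isg15, a ubiquitin-like protein induced by interferon, measured 175, 208, 172 and 141 CPM at day 7 and 76.0, 11.3, 80.7 and 84.8 CPM at day 21, without overlap (log2 fold change -1.41, SE 0.289, edgeR adjusted p = 0.00941). Rsad2 (-3.08, 36.1 to 2.86 CPM), Ifit1 (-2.04), Ifit3 (-1.81) and Ifit2 (-1.77) fell as well, but Rsad2, Ifit1, Ifit2 and Ifit3 lost the threshold in 3, 7, 6 and 2 of the alternatives, among them the omission of day 21 replicate 2 for each. Spp1 fell by 2.19 (553 ± 116 to 113 ± 53.2 CPM), as did the lipid droplet gene Plin2 (-0.85), while Cd36 rose (1.29), and 9 of 12 lipid handling genes were not past the threshold. Of 16 cytokine and chemokine genes, Ptgs2 (-1.57) and Il1b (-0.96, 1078 to 548 CPM) fell and none rose. The complement gene C3 (-1.66) and Ifi30 (-0.65) also fell. Ptgs2 lost the threshold in 9 of 21 alternatives, with log2 fold changes from -2.56 to -1.05, and Cd36 in 7 of 22, among them the omission of day 21 replicate 1 or 3 for both, and C3 and Ifi30 lost it in 2 and 3.

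Icosl, the ligand of the T cell costimulator ICOS, was the single loading and costimulation gene of 11 that rose. It measured 7.44, 5.63, 2.00 and 6.63 CPM at day 7 and 21.3, 37.8, 35.3 and 16.0 CPM at day 21, without overlap (log2 fold change 2.15, SE 0.414, edgeR adjusted p = 0.00635). The organic anion transporter gene Slco2b1 measured 9.29, 8.76, 11 and 6.63 CPM at day 7 and 48.6, 37.8, 35.3 and 34.4 CPM at day 21 (2.14, SE 0.283, edgeR adjusted p = 0.0006). No day 21 library overlapped a day 7 library. Timp3, an inhibitor of metalloproteinases, rose by 3.34, with 36.5, 64.3, 177 and 27.5 CPM at day 21 against 3.72 to 11 CPM at day 7, and by 2.67 without day 21 replicate 3. The mannose receptor gene Mrc1 went from 215 ± 32.4 to 383 ± 107 CPM (0.85), Tgfbr2 rose by 0.82, and the heat shock gene Hspa1a went from 273 ± 97.3 to 636 ± 99.9 CPM (1.21) together with Atf3 (0.72) and Jun (0.65), which lost the threshold in 3 and 6 of 22 alternatives. AY036118, a noncoding transcript that overlaps a ribosomal RNA region, rose by 2.43 and by 1.64 without day 21 replicate 2, and Sult1a1 (2.43) and Atf5 (2.06) rose from 5.96 and 6.28 CPM to 35.9 and 28.6 CPM.

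The largest falls at day 21 were of haemoglobin genes. Hba-a2 fell by 5.36 and Hbb-bt by 5.01, and the summed erythroid and mast cell genes went from 4636 ± 4833 CPM, between 176 and 11482 CPM in the 4 day 7 libraries, to 190 ± 68.9 CPM. Without the cells rich in such RNA, Hba-a2, Hbb-bs and Hbb-bt were at -0.47, -0.38 and -0.34 and not past the threshold, and Hba-a1 was at 0.12. Hbb-bs, Hba-a1, S100a8 and S100a9 were among the genes by which those cells were removed, which by itself limits their changes. The copies Hba-a1 and Hba-a2, and Hbb-bs and Hbb-bt, may share reads. S100a8 and S100a9 fell by 3.88 and 3.82, with granulocyte genes summing to 46.8 ± 6.63 CPM at day 21, and S100a8 fell by 1.94 without those cells. None of 12 identity genes, 8 MHC class I genes, 5 dendritic genes, 5 CD47 genes, 7 stromal genes or 3 cell cycle genes was past the threshold.

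The difference between the classes over this interval was past the threshold in 2 of 7224 genes (0.0277%, edgeR interaction, 832 genes at an unadjusted p under 0.05, 19 genes with DESeq2), and both were cell cycle genes. The count ranged from 0 to 124 with 1 library left out, being 0 without day 7 replicate 2, 3 or 4 and 124 without day 21 replicate 4, and was 34 with replicates 1 to 3. Stmn1 went from 44.1 ± 23.0 to 98.0 ± 76.5 CPM in the members and from 95.6 ± 30.2 to 10.0 ± 10.1 CPM in the low class (difference of log2 fold changes 4.38), and Top2a from 6.37 ± 4.12 to 29.7 ± 29.1 CPM and from 22.7 ± 7.69 to 0.911 ± 1.82 CPM (6.98). Both signs turned with the thinned choice of cells, at -0.32 and -0.59, and the low class held 84 cells in all at day 21.

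With p7N3 no gene of the MHC class II high macrophages passed the threshold against day 7 (0 of 7282 genes, edgeR quasi-likelihood test, Benjamini-Hochberg adjusted p under 0.05, 4 against 4 libraries). At an unadjusted p under 0.05 there were 466 genes, and DESeq2 called 3, Tm4sf1, Cd9 and Lpl. Tm4sf1, a surface protein of the tetraspanin-like L6 family, measured 32.0, 36.1, 42.1 and 60.6 CPM with p7N3 and 16.7, 17.5, 12.0 and 16.6 CPM at day 7. All 4 p7N3 libraries lay above the day 7 libraries (log2 fold change 1.35, SE 0.218, edgeR adjusted p = 0.162), in an experiment where 2.69% of genes were separated in this direction and 0.865% in the other. Cd9 measured 173, 198, 172 and 189 CPM with p7N3 and 233, 265, 315 and 358 CPM at day 7, without overlap (log2 fold change -0.72, SE 0.125, edgeR adjusted p = 0.163). Lpl measured 133, 199, 129 and 122 CPM with p7N3 and 330, 181, 309 and 268 CPM at day 7, where p7N3 replicate 2 and day 7 replicate 2 crossed (log2 fold change -0.94, SE 0.183, edgeR adjusted p = 0.347).

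No list had a member past the threshold with p7N3, and the medians were near that of all genes (0.00357) for loading and costimulation (0.03, 11 genes), MHC class I (-0.09, 9 genes), macrophage identity (-0.06, 12 genes), resident-like genes (-0.05, 7 genes), cytokines and chemokines (-0.01, 20 genes) and the CD47 genes (-0.08, 5 genes). They were -0.47 for 13 interferon genes, -0.24 for 12 lipid handling genes, 0.12 for 9 monocyte genes and 0.12 for 11 TGF beta and growth factor genes. As examples of the loading and CD47 lists, Ctss measured 3538 ± 298 CPM at day 7 and 3516 ± 252 CPM with p7N3, and Calr 448 ± 53.4 and 438 ± 44 CPM. The summed granulocyte genes were at 610 ± 261 CPM with p7N3 and the erythroid and mast cell genes at 836 ± 1411 CPM, against the 397 and 4636 CPM of day 7. The change with p7N3 also did not differ between members and MHC class II low macrophages at the threshold (0 of 8670 genes by edgeR and by DESeq2, 347 at an unadjusted p under 0.05). These counts do not show that the treatments gave the same cells: Cd9 passed the threshold with DESeq2, without a filter, with thinned cells, without the top doublet scores, without cells rich in other RNA and without day 7 replicate 1.

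**Figure D5:**
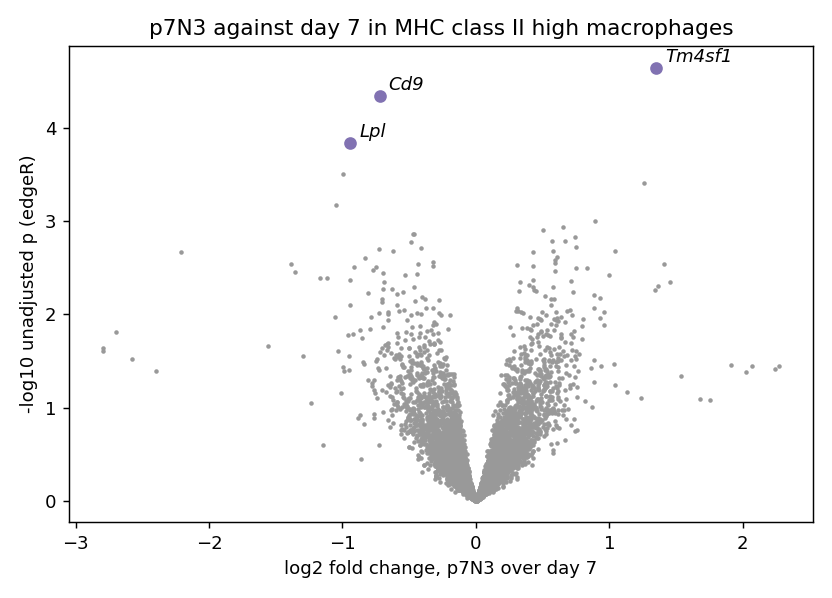
Log2 fold change of p7N3 over day 7 against -log10 of the unadjusted edgeR p for 7282 genes in MHC class II high macrophages. The 3 genes called by DESeq2 are marked, and no gene passed the adjusted threshold in edgeR.

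At day 0 the class held 35 cells, 16, 6, 9 and 4 in the 4 libraries, so that a single library reached 10 cells and no test against day 3 was made. Mgl2 measured 623, 409, 803 and 815 CPM in these libraries, above every later library, and 829 ± 61.4 CPM (n = 4) in the Folr2-positive macrophages of day 0. In the library with 16 cells, Mrc1 was at 591 CPM, Ccr2 at 408 CPM, Il1b at 247 CPM and Ly6c2 at 10.7 CPM, and Chil3 and Plac8 had no UMI. In the MHC class II low macrophages Mgl2 did not exceed 9.59 CPM in any of the 15 libraries with at least 10 such cells. The 4 day 0 libraries held 6, 3, 6 and 1 such cells and were not among them.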

How the data were processed

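Single cell RNA-seq of the tenotomy site was performed with droplet capture and 3′ tags. The authors deposited whole-number UMI counts per gene and barcode for each of 19 libraries, unnormalized, and the submitters' processing notes name Cell Ranger and Seurat, with mm10 for some libraries and GRCh38 for others, although all gene identifiers are mouse. The matrix of day 0 replicate 1 also holds barcodes without cells, which the limit of 500 genes removed.

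UMIs of member cells were summed per library, and libraries with at least 10 members entered the tests. Groups were compared in edgeR 4.0.16 (R 4.3.3, limma 3.58.1) by the quasi-likelihood test with TMM factors, the default filter on low counts and Benjamini-Hochberg adjustment over all genes tested, at 0.05. The 12 genes of the rule stayed in library sizes and out of the tests. The rule held a further condition on a transcript that is not reported here. Cells were not treated as replicates. The day 7 libraries served in all 3 comparisons, which are therefore not independent. Shares were compared by exact permutation over libraries (scipy 1.17.1). Counting error limits genes of a few CPM, since the members of a library held between 14719 and 1613832 UMIs in sum.

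The members, the lists and the tests were chosen with earlier results of these data known. Named were up to 4 genes past the threshold of each list by size of change, or its most abundant gene where none passed, and the 6 largest changes in each direction among genes of at least 20 CPM whose groups did not overlap, without mitochondrial and ribosomal protein genes. Rule genes apart, the classes side by side show 12 genes in each direction by the median ratio with a pseudocount of 1 CPM. Tm4sf1, Cd9 and Lpl with p7N3, and genes named for overlap or cell identity, were chosen after their values were seen. Of 207 list genes 205 were matched. Promoters are from RefSeq (GRCm38.p6).

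Alternatives were DESeq2 1.42.0, RLE factors, no filter, at least 10 UMIs in every library, a replicate block, all 5 groups in 1 fit, no library term, a class II limit of 2% or 0.5%, at most 10% mitochondrial UMIs, a choice of cells after thinning to 2000 UMIs, removal of the top 3.9% of Scrublet doublet scores (scanpy 1.11.5, Python 3.11.15), removal of shared barcodes, replicates 1 to 3 alone and each library left out. Doublets were otherwise kept. Removal of cells rich in stromal, granulocyte or haemoglobin RNA was added after seeing the data. It removed cells by the levels of those genes, so their own changes under it are limited by the choice. The edgeR script was tested on simulated data, where false genes made up more of the calls than the threshold allows in most comparisons, most of all between day 3 and day 7 and with p7N3, so counts of calls are approximate. Figures were drawn with matplotlib 3.10.9.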

Additional observations from a re-analysis of the deposited data

Results flagged for a closer look

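Sets of 4 libraries of a group were examined for the levels of genes chosen for the text and for the share of C1q macrophages. Day 3, with 3 libraries, was left out. Of 76 such sets, 9 held a library far from the others, where chance gives about 1 in 20. At day 7, Ly6c2 was 221 CPM in replicate 2 against a median of 63.8 CPM in the other libraries, Gpnmb was 89.5 CPM in replicate 4 against 40.0 CPM, and Tm4sf1 was 12 CPM in replicate 3 against 16.7 CPM. At day 21, Mgl2 was 201 CPM in replicate 1 against 106 CPM, Ly6c2 was 11.5 CPM in replicate 4 where the others had no UMI, Isg15 was 11.3 CPM in replicate 2 against 80.7 CPM, and Tm4sf1 was 56.7 CPM in replicate 2 against 20.2 CPM. With p7N3, Lpl was 199 CPM in replicate 2 against 129 CPM and Timp3 14.6 CPM in replicate 4 against 6.64 CPM.

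The change from day 3 to day 7 differed between MHC class II high and low macrophages in 479 genes and that from day 7 to day 21 in 2 genes, both by the edgeR interaction.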

How the results depend on the processing

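Of the named genes, 48 of 66 between day 3 and day 7, 17 of 31 between day 7 and day 21 and 7 of 52 for the difference from MHC class II low macrophages between day 3 and day 7 kept their direction and their side of the threshold under every alternative that gave a value. Of the values of named genes, 46 of 143 lost the threshold with the thinned choice of cells and 36 of 54 in the fit without a library term, and the cause was not tested. With p7N3, the count of 0 genes was 3 with DESeq2, 93 without a filter, 1 each with thinned cells, without the top doublet scores, without cells rich in other RNA and with replicates 1 to 3, and 0 to 1 with a library left out. Between day 3 and day 7 the count of 1760 was 1197 with DESeq2 and 2102 without a filter. It was 1209 with thinned cells, 999 of which were among the 1760, and 1236 (without day 3 replicate 1) to 1668 with a library left out. For day 21 the count of 327 was 677 without a filter, 495 with all 5 groups in 1 fit, 210 with replicates 1 to 3, and 181 (without day 21 replicate 2) to 304 with a library left out.

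For the difference from MHC class II low macrophages, the count of 479 between day 3 and day 7 was 229 with DESeq2, 793 without a filter, 154 without a library term and 101 with thinned cells, 36 of which were among the 479. The count of 2 between day 7 and day 21 was 19 with DESeq2, 262 without a filter, 0 without a library term, 0 at a limit of 0.5%, 6 with thinned cells, 24 without the top doublet scores, 26 without cells rich in other RNA and 34 with replicates 1 to 3. It ranged from 0 (without day 7 replicate 2, 3 or 4) to 124 (without day 21 replicate 4) with a library left out. The count of 0 with p7N3 was 31 without a filter and 1 each with thinned cells and without the top doublet scores.

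The share of C1q macrophages changed sign between day 7 and day 3 as a percent of all cells (-0.182 points), between day 21 and day 7 with thinned cells (2.68) and between day 3 and day 0 at a limit of 2% (-0.971). With a library left out it ranged from -2.64 to 1.18 for p7N3, from 12.8 to 15.4 for day 7 over day 3, from -3.00 to 0.0333 for day 21 over day 7 and from 0.202 to 2.97 for day 3 over day 0. Day 3 was 5.10 points above day 0 with thinned cells and 3.05 points above it at a limit of 0.5%.

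With thinned cells, H2-DMb2 (0.58) and Klrd1 (0.23) changed sign between day 3 and day 7, and so did the differences between the classes for Acta2 (-0.0859), C5ar1 (-0.0478), Lgmn (0.30), Mrc1 (0.32), Ms4a7 (0.14), Sepp1 (0.14), Thbs1 (-0.68), and, between day 7 and day 21, Stmn1 (-0.32) and Top2a (-0.59). Without cells rich in other RNA, Hba-a1 (0.12) changed sign at day 21, as did the differences of Col1a1 (0.20), Col1a2 (0.0206), Col3a1 (0.0307), S100a8 (-0.80) and S100a9 (-0.44).

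Replicate numbers are shared between groups, but their libraries did not deviate together (correlations across genes of 0.115, 0.111, 0.0840 and 0.0112 for p7N3 with day 7, and from -0.0363 to 0.0418 for the other pairs of groups). With the replicate block the counts were 0 with p7N3, 1498 between day 3 and day 7 and 250 between day 7 and day 21, and 1 of 100 values of named genes lost the threshold. A gene test of day 3 against day 0 was not run, since 1 day 0 library had 10 members. Depth limits day 21, with 198197 to 436563 UMIs in the members of a library.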
